A study of Mus musculus with 4 samples.

Results

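The genes described here encode the receptors that bind bone morphogenetic proteins (BMPs) at the cell surface and the coreceptors that help them do so. They were taken by gene name from the joined expression table, which held 10 of these genes among 55267 entries: 4 type I receptors (Bmpr1a, Bmpr1b, Acvr1 and Acvrl1), 3 type II receptors (Bmpr2, Acvr2a and Acvr2b) and 3 coreceptors (Eng, Rgma and Rgmb). The rule used their names alone. RNA-seq was done on muscle stem cells (MuSCs) of female C57BL/6N(Tg(Pax7-EGFP)Tajb) mice aged 9 weeks, which carry a green fluorescent reporter of Pax7. All 4 libraries came from cells of fore- and hindlimb, dorsal and breast muscle that were pooled, cultured for 1 day, sorted for the reporter, cultured for a further 2 days and kept without serum for 6 h with 200 ng/mL BMPR1A-Fc, a soluble receptor fragment that captures BMPs in the medium. Then 2 cultures received 100 ng/mL BMP6 for 1 h and 2 control cultures received its vehicle, 4 mM HCl with 0.1% BSA. The same replicate number in both groups marks a shared batch, so every control shares with its BMP6 partner the reporter, the soluble receptor, the lack of serum and 3% oxygen. The control libraries show which receptor mRNAs these cultured cells held, and the comparison asks whether 1 h of BMP6 altered the mRNA of the receptors themselves.

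A BMP dimer assembles a complex of type I and type II receptors, both of which are serine/threonine kinases that span the membrane. The type II kinase is constitutively active and phosphorylates the type I receptor in a short glycine-serine repeat next to the membrane, and the activated type I kinase phosphorylates SMAD1, SMAD5 and SMAD9. Endoglin and the repulsive guidance molecules are not kinases and bind ligands or receptors at the surface. In skeletal muscle, BMP signaling keeps MuSCs from differentiating.

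Levels are given in TPM, a transcript abundance that is corrected for length and sums to 1000000 in each library, so that levels of different genes can be compared. The libraries held 108138615 to 111966627 reads as rebuilt from the deposited coverage, 13002 to 13203 entries reached 1 TPM in each, and correlations between libraries on the log2(TPM + 1) scale were 0.988 to 0.995. Muscle markers dominated: the summed level of 8 of them, among them Pax7, Myod1, Myog and Des, was 6701 to 7662 TPM. Most of this sum came from Myog, with 4400 to 5472 TPM over the 4 libraries, while Pax7 had 8.29 to 11.7 TPM. The study links a rise of Myog to terminal differentiation, so the levels below are those of cultured cells with high Myog. The summed level of 8 endothelial markers was 1.59 to 2.60 TPM, of which Tek gave 1.24 to 1.87 TPM, and Kdr was listed at 0 in every library. Of 5 immune markers, Cd68 was the highest with at most 1.68 TPM, and of 3 Schwann cell markers none exceeded 0.601 TPM. The summed level of 5 pericyte and smooth muscle markers was 2916 to 3259 TPM, nearly all of it from Acta2, while Myh11 had at most 0.0239 TPM. The summed level of 6 fibroblast markers, 4 of which reached a mean of 1 TPM, was 124 to 198 TPM and was higher in both libraries of replicate 1. Nearly all of it came from Col3a1 (69.4 to 109 TPM), Col1a1 (34.3 to 62.9) and Ly6a (18.7 to 24.1). Dcn had at most 1.92 TPM, Lum at most 0.270 and Pdgfra at most 0.164. Early BMP target genes showed that the pathway responded: 6 of 7 passed an adjusted p of 0.1 in limma's test on log2(TPM + 1), all higher after BMP6, and across all 13128 entries tested 32 did so in either direction, or 0.244%. In bulk RNA, fewer cells of a type and less RNA per cell cannot be told apart.

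In the control cultures, the highest levels among the 10 genes were those of the coreceptor Rgmb and the type I receptor Bmpr1a. The type II receptor Acvr2a, the coreceptor Eng and the type I receptor Acvr1 followed. Mean levels in controls were 16.5 ± 0.563 TPM for Rgmb, 14.7 ± 0.964 for Bmpr1a, 8.53 ± 0.310 for Acvr2a, 8.08 ± 0.663 for Eng and 5.11 ± 0.705 for Acvr1 (SD, n = 2 for each). The other 5 were near 1 or 2 TPM, with 2.10 ± 0.509 for Acvr2b, 1.85 ± 0.358 for Bmpr2, 1.42 ± 0.120 for Bmpr1b, 1.05 ± 0.0473 for Rgma and 0.931 ± 0.461 for Acvrl1 (SD, n = 2 for each). Over all 4 libraries, neighbors in this order with overlapping ranges were Rgmb and Bmpr1a, Acvr2a and Eng, Acvr2b and Bmpr2, Bmpr1b and Rgma, and Rgma and Acvrl1. The ranges did not overlap between Bmpr1a and Acvr2a, Eng and Acvr1, Acvr1 and Acvr2b, and Bmpr2 and Bmpr1b. Even the highest levels were moderate, since 54.9% of the 13128 tested entries had a lower control mean than Rgmb and 52.6% a lower one than Bmpr1a. For Bmpr2 this share was 11.2% and for Bmpr1b 6.55%.

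**Figure D1:**
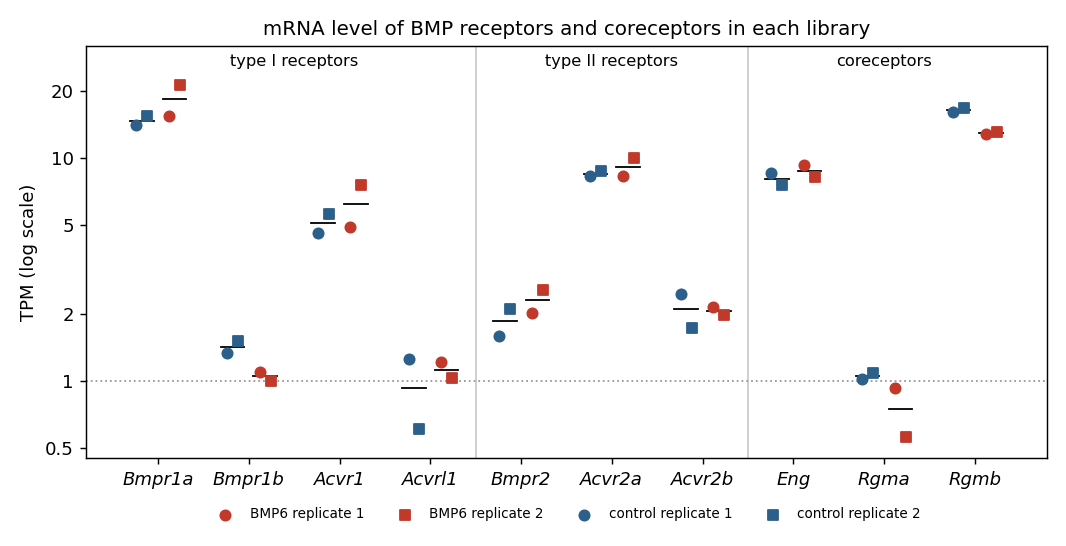
Level of each of the 10 genes in TPM on a log scale, grouped by role, with 1 point per library (blue for control, red for BMP6, circles for replicate 1, squares for replicate 2), a black bar at each group mean and a dotted line at 1 TPM, the filter of the test. Rgmb and Bmpr1a lie highest, Acvrl1 and Rgma lie around 1 TPM, and both BMP6 libraries of Rgmb, at 12.9 and 13.1 TPM, lie below both controls.

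By class, Bmpr1a provided 66.1% and 66.7% of the type I receptor mRNA in the control libraries and 68.2% and 69.0% in the BMP6 libraries. Acvr1 provided 21.6% to 24.5% over the 4 libraries. Of the type II receptor mRNA, Acvr2a provided 66.6% to 69.5% and Bmpr2, the type II receptor best known for its specificity for BMPs, 12.9% to 17.7%. The summed type I level was 1.72 and 1.84 times the summed type II level in controls and 1.82 and 2.12 times in BMP6 libraries, ranges that overlapped. Summed type I levels were 21.3 and 23.1 TPM in controls and 22.7 and 30.9 TPM after BMP6. Summed levels of the 3 coreceptors Eng, Rgma and Rgmb were 25.7 and 25.6 TPM in controls and 23.2 and 22.0 TPM after BMP6, and this gap followed Rgmb. The sum leaves out Hjv, a relative of Rgma and Rgmb outside the 10 genes, which had 56.2 to 68.6 TPM over the 4 libraries.

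After 1 h of BMP6, none of the 9 genes that reached a mean of 1 TPM passed the adjusted p of 0.1 in limma's test. None passed both thresholds of the study's kind, a change of 2-fold or more in either direction together with that adjusted p. In all, 24 entries or 0.183% of all tested did so. For this count, 2471 entries without a gene name or with names of non-coding RNAs, predicted genes or pseudogenes were taken as not passing. Of the 9, 6 had a higher mean and 3 a lower mean after BMP6 on the log2(TPM + 1) scale, where 7266 of all 13128 entries were higher and 5862 lower. The median log2 fold change of the 9 was 0.11 beside 0.016 over all entries. At an unadjusted p under 0.05, 1 of the 9 was lower (Rgmb) and 0 were higher, and 0.861% of all entries were lower at that level. With the shared batch as a replicate block, 1 was lower (Rgmb), where 4.93% of all entries were, and 1 was higher (Bmpr1a), where 7.97% were. The 95% intervals of the 9 log2 fold changes together spanned -0.60 to 0.75, so a change of 2-fold on the log2(TPM + 1) scale lay outside each interval. That scale understates the change of genes near 1 TPM. The 2 BMP6 libraries did not overlap with the 2 controls for 3 of the 9 genes: Bmpr1a was higher in both, while 16.6% of all entries were non-overlapping and higher, and Bmpr1b and Rgmb were lower in both, while 11.6% of all entries were non-overlapping and lower. With 2 libraries per group, an exact permutation test cannot give a p below 0.333. The labels do not say how many animals stand behind each culture, and the p-values measure only the spread between these libraries.

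**Figure D2:**
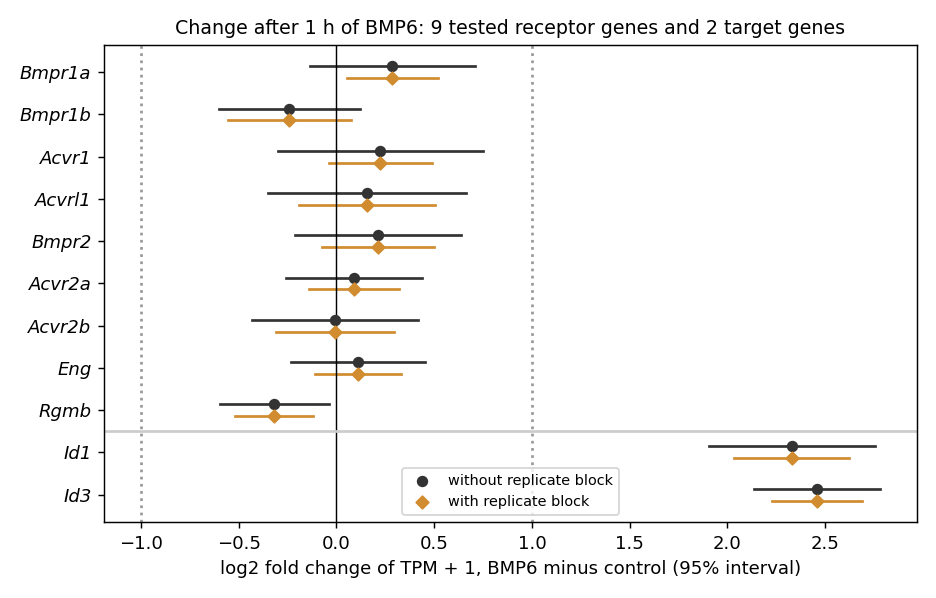
Log2 fold change of TPM + 1 (BMP6 minus control) with its 95% interval for the 9 tested receptor and coreceptor genes and, below the line, for the target genes Id1 and Id3, fitted without (black circles) and with (orange diamonds) the shared batch as a term; dotted lines mark a 2-fold change. All receptor intervals stay between the dotted lines, while Id1 at 2.33 and Id3 at 2.46 lie beyond them.

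The type I receptors carry the glycine-serine repeat that the type II kinase phosphorylates. A search of the 10 translated coding sequences for glycine and serine alternating over 5 residues found 1 match in each of the 4 type I receptors and 0 in the type II receptors and coreceptors. The coding strand around each match, read from GRCm39, is shown because it is the feature that sets the type I class apart, and the capitals mark the 5 codons of the repeat. The stretches lie in a single exon of each gene, at chr14:34151613-34151651 (minus strand) in Bmpr1a, chr3:141568744-141568782 (minus strand) in Bmpr1b, chr2:58364231-58364269 (minus strand) in Acvr1 and chr15:101034024-101034062 (plus strand) in Acvrl1.
Bmpr1a: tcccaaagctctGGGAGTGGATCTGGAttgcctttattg
Bmpr1b: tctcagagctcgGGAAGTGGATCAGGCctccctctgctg
Acvr1: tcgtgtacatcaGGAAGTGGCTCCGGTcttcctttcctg
Acvrl1: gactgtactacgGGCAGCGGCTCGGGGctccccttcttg
The capital bases differ between the 4 genes. Over the whole coding sequence, 69.1% of aligned bases were identical between Bmpr1a and Bmpr1b and 62.6% between Acvr1 and Acvrl1.

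Bmpr1a encodes the type I receptor ALK3, whose extracellular part is also the soluble protein added to all cultures. The gene lies on chromosome 14 from 34132691 to 34224644 (minus strand, GRCm39), and its main transcript has 13 exons and 1596 coding bases. Its level was 14.1 and 15.4 TPM in control replicates 1 and 2 and 15.5 and 21.3 TPM in BMP6 replicates 1 and 2. BMP6 replicate 2 stood above the other three libraries, and BMP6 replicate 1 was within 0.1 TPM of control replicate 2. The log2 fold change was 0.29 with a 95% interval of -0.13 to 0.71 and an adjusted p of 1.00. With the replicate block the interval was 0.06 to 0.52 and the adjusted p was 0.297. Within batches it was 0.13 in replicate 1 and 0.44 in replicate 2, and without BMP6 replicate 2 it was 0.068.

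Bmpr1b encodes ALK6, the closest relative of ALK3 and best known from cartilage and ovary. It lies on chromosome 3 from 141542897 to 141875186 (minus strand). Its level was 1.34 and 1.51 TPM in the controls and 1.09 and 1.00 TPM after BMP6, which is 229 to 342 reads per library. Both BMP6 libraries were below both controls, but the log2 fold change of -0.24 had an interval of -0.60 to 0.12 and an adjusted p of 1.00. With 0.1 in place of 1 added before the logarithm it was -0.41, again at an adjusted p of 1.00.

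Acvr1 encodes ALK2, a type I receptor that is used by BMP6 and BMP7. It lies on chromosome 2 from 58336446 to 58457169 (minus strand). Its level was 4.61 and 5.60 TPM in controls and 4.91 and 7.55 TPM after BMP6, and the ranges overlapped. The log2 fold change was 0.23 (95% interval -0.30 to 0.75, adjusted p = 1.00), and it was -0.041 without BMP6 replicate 2. A stretch of 267 bases of Acvr1 was 99.3% identical to Upp2, which had at most 0.311 TPM.

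Acvrl1 encodes ALK1, best known as the BMP9 receptor of endothelial cells. It lies on chromosome 15 from 101026403 to 101043217 (plus strand). Its level was 1.26 and 0.606 TPM in controls and 1.22 and 1.03 TPM after BMP6, with 136 to 282 reads per library. The controls differed more from each other than from the BMP6 libraries. The log2 fold change was 0.16 (95% interval -0.35 to 0.66, adjusted p = 1.00). Of the endothelial markers, Tek had 1.24 to 1.87 TPM, Pecam1 at most 0.111 and Cdh5 at most 0.0579, and their sum, like Acvrl1, was lowest in control replicate 2.

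Bmpr2 encodes the BMP type II receptor, whose long cytoplasmic tail sets it apart from the activin type II receptors. A stretch of 109 bases of Bmpr2 was 96.3% identical to Tex9, which had 4.37 to 5.83 TPM. It lies on chromosome 1 from 59802559 to 59918173 (plus strand) and has 3114 coding bases in a transcript of 12899 bases. Its level was 1.60 and 2.10 TPM in controls and 2.03 and 2.57 TPM after BMP6. The BMP6 libraries were each above their batch partner, with log2 differences of 0.22 in replicate 1 and 0.20 in replicate 2, but the ranges overlapped and the fitted log2 fold change of 0.21 (95% interval -0.21 to 0.64) had an adjusted p of 1.00.

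Acvr2a and Acvr2b encode the activin type II receptors, which also bind BMPs, BMP6 among them. Acvr2a lies on chromosome 2 from 48704121 to 48793281 and Acvr2b on chromosome 9 from 119231184 to 119264061, both on the plus strand, and 64.6% of their aligned coding bases were identical. Acvr2a had 8.32 and 8.75 TPM in controls and 8.33 and 10.0 TPM after BMP6, a log2 fold change of 0.09 (95% interval -0.26 to 0.44, adjusted p = 1.00). Acvr2b had 2.46 and 1.74 TPM in controls and 2.15 and 1.97 TPM after BMP6, so that both BMP6 libraries fell inside the control range, with a log2 fold change of -0.01 (95% interval -0.43 to 0.42, adjusted p = 1.00). The end of Acvr2a overlaps the end of Orc4, a replication gene on the other strand, over 3079 bases of its last exon. The library kit did not mark strand, and Orc4 had 39.5 to 50.6 TPM. In the 9 internal exons of Acvr2a, which Orc4 does not overlap, coverage in TPM equivalents (coverage times the TPM per unit of coverage of that library) averaged 17.0 and 16.0 in controls and 15.9 and 16.7 after BMP6, again with overlap. In the last exon it was lower, with 6.06 and 7.24 in controls and 6.60 and 8.86 after BMP6.

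Rgmb encodes RGMb, also called DRAGON, a glycosylphosphatidylinositol-anchored coreceptor that binds BMPs. It lies on chromosome 17 from 16023450 to 16046848 (minus strand), and its main transcript has 3 exons and 1308 coding bases. Its level was 16.1 and 16.9 TPM in controls and 12.9 and 13.1 TPM after BMP6, with 4354 to 5642 reads per library. The values within each group lay close together, and the gap between the groups was larger than the spread within them. The log2 fold change was -0.32 (SE 0.11, 95% interval -0.60 to -0.04), with log2 differences of -0.30 in replicate 1 and -0.34 in replicate 2. Limma's unadjusted p was 0.0316 and the adjusted p was 1.00. With the shared batch as a replicate block, the adjusted p was 0.191, while 1.64% of all entries passed 0.1. It passed in only 1 of the 14 alternative analyses, limma-voom on rebuilt reads with the replicate block, with an adjusted p of 0.0749 where 2.13% of all entries passed. The log2 fold changes over the 14 ranged from -0.35 to -0.25, all lower after BMP6. These alternatives refit the same libraries, in which both BMP6 values lay below both controls, so their shared direction is not independent evidence. Bmpr1a, Bmpr1b, Bmpr2 and Eng also kept their direction in every alternative.

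Rgma, the relative of Rgmb first known from axon guidance, lies on chromosome 7 from 73025257 to 73069647 (plus strand), and 64.0% of its aligned coding bases were identical to those of Rgmb. Its level was 1.02 and 1.08 TPM in controls and 0.930 and 0.560 TPM after BMP6. Both BMP6 libraries were below both controls, but its mean was below the filter of 1 TPM, so no background share covers it. Its transcripts differed in direction. Rgma-201 had 0.549 and 0.531 TPM in controls and 0.247 and 0 TPM after BMP6. The main transcript, Rgma-204, made up 34.5% and 46.2% of Rgma in controls and 73.0% and 90.6% after BMP6. The TPM of Rgma-204 was higher in both BMP6 libraries, at 0.679 and 0.507, than in both controls, by little in replicate 2. All 3 of its exons had higher mean coverage after BMP6, and for 1 of them, exon 3, the groups did not overlap. Exon 3 had 0.277 and 0.472 TPM equivalents in controls and 0.582 and 0.485 after BMP6. Rgma as a whole had 114 to 232 reads per library, so its transcript shares and exon values rest on few reads. No background share covers exons or transcripts below the filter. A lncRNA on the other strand, A730056A06Rik, overlaps Rgma over 258 bases and had 2.32 to 2.68 TPM, and reads of the overlap cannot be told apart without strand. In a fit without the filter, the log2 fold change of Rgma was -0.24 (95% interval -0.73 to 0.25, adjusted p = 1.00). Eng encodes endoglin, the coreceptor best known from endothelium, and lies on chromosome 2 from 32536607 to 32572681 (plus strand). Its level was 8.55 and 7.62 TPM in controls and 9.35 and 8.26 TPM after BMP6. Fpgs, on the other strand, overlaps 61 bases of Eng and had 11.8 to 13.9 TPM. The Eng ranges overlapped, and the log2 fold change was 0.11 (95% interval -0.23 to 0.45, adjusted p = 1.00). In the same libraries, Tek was the highest of the 8 endothelial markers with 1.24 to 1.87 TPM and the other 7 each had at most 0.223 TPM. The part of endothelial RNA in the levels of Eng and Acvrl1 was not tested.

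Exon coverage shows where along the mRNA these levels were measured. All 3 exons of the main Rgmb transcript had lower coverage in both BMP6 libraries than in both controls. Exon 2 had 41.2 and 42.0 TPM equivalents in controls and 31.9 and 32.03 after BMP6, and exon 3, which includes the 3′ end, had 13.2 and 13.3 in controls and 10.7 and 11.01 after BMP6. The gap was thus present in each exon of this transcript. This is not particular to Rgmb, since the coverage is that assigned to 1 transcript. All 15 exons of the main Eng transcript were likewise lower without overlap, although the gene levels of Eng overlapped. Without overlap, 9 of 12 exons were lower for Bmpr1b and 9 of 13 were higher for Bmpr1a. For Bmpr1a, the 11 internal exons averaged 21.4 and 21.2 TPM equivalents in controls and 23.2 and 30.4 after BMP6, while the first exon had at most 1.80 and the last, of 3936 bases, 11.2 to 18.5. The first exon was also low elsewhere, with at most 40.7% of the median internal coverage in 9 of the 10 main transcripts, Rgma being the exception with 97.8%. In internal exons, the ranges over the libraries were 31.9 to 42.0 TPM equivalents for Rgmb and 21.2 to 30.4 for Bmpr1a. These ranges did not overlap, unlike those of the gene levels. Rgmb has only 1 internal exon, however, whereas the Bmpr1a values are averages over 11. Single internal exons of Bmpr1a ranged from 10.2 to 41.3 TPM equivalents over the libraries and so reached the Rgmb range. Exons of 1 gene share their RNA and are not replicates.

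**Figure D3:**
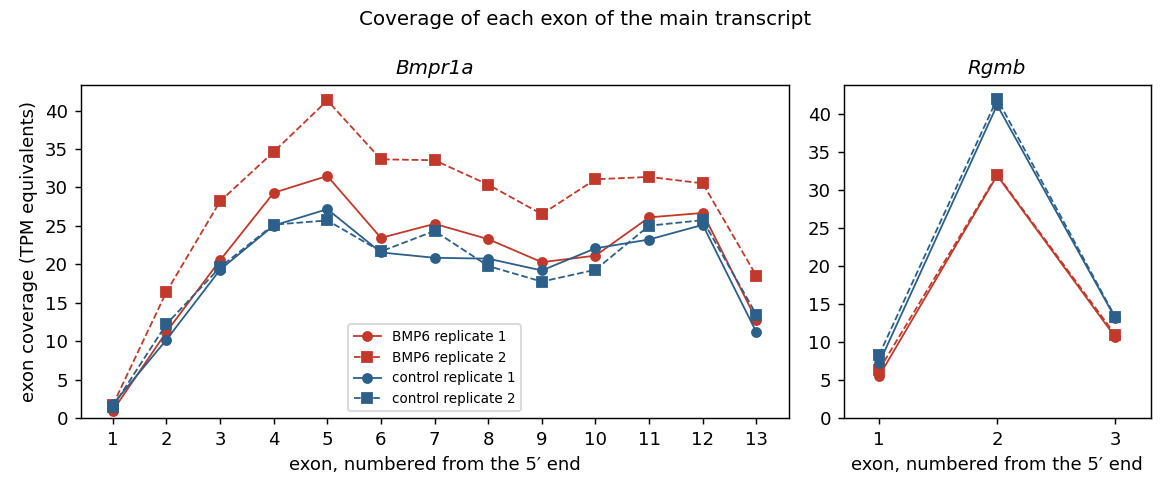
Coverage of each exon of the main Bmpr1a (left, 13 exons) and Rgmb (right, 3 exons) transcript in TPM equivalents, from the 5′ end, with 1 line per library (blue for control, red for BMP6, solid for replicate 1, dashed for replicate 2). For Bmpr1a, the line of BMP6 replicate 2 runs above the other three from exon 2 on, and for Rgmb both red lines run below both blue lines at every exon.

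The per-library files split the 10 genes into 29 annotated transcripts, of which 11 reached a mean of 1 TPM. None of the 11 passed the adjusted p of 0.1 in limma's test, as 0.0672% of the 19346 transcripts tested did. The 2 groups of libraries did not overlap for 7 of the 11: 4 transcripts were higher after BMP6, where 17.2% of all transcripts were non-overlapping and higher, and 3 were lower, where 13.7% were non-overlapping and lower. They come from 4 genes and share reads within each gene, so they are not independent. Bmpr2 and Acvr2a each had 1 transcript in the files, and 97.3% to 99.2% of Bmpr1a came from 1 transcript.

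Eng was the only member with 3 tested transcripts. One of them, Eng-202, keeps the last intron, which replaces the end of the cytoplasmic tail with a shorter one (the S form of endoglin), while Eng-201 and Eng-205 splice it out (the L form). The retained stretch up to its stop codon is shown because it is the base sequence that separates the forms. It lies at chr2:32571310-32571398 (plus strand, GRCm39) in an intron of 139 bases, and the capitals mark the stop codon.
Eng last intron: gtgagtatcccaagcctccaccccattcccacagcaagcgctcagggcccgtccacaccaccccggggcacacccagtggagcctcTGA
Eng-202 had 1.75 and 1.90 TPM in controls and 2.22 and 2.703 TPM after BMP6, a log2 fold change of 0.29 (95% interval -0.23 to 0.81, adjusted p = 1.00). As a share of Eng it was 20.5% and 24.9% in controls and 23.8% and 32.7% after BMP6, and these shares overlapped. RNA that has not yet been spliced also holds this intron, and its part in the value was not tested. Eng-201 and Eng-205 differ by their start and by 3 coding bases, 1959 against 1956. Eng-201 had 2.03 and 2.02 TPM in controls and 4.08 and 3.05 TPM after BMP6. Its log2 fold change was 0.58 (95% interval 0.02 to 1.14, adjusted p = 1.00). Eng-205 had 4.77 and 3.70 TPM in controls and 3.05 and 2.50 TPM after BMP6. Its log2 fold change was -0.47 (95% interval -1.03 to 0.10, adjusted p = 1.00). Their sum, 6.80 and 5.72 TPM in controls and 7.13 and 5.55 TPM after BMP6, overlapped between the groups.

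**Figure D4:**
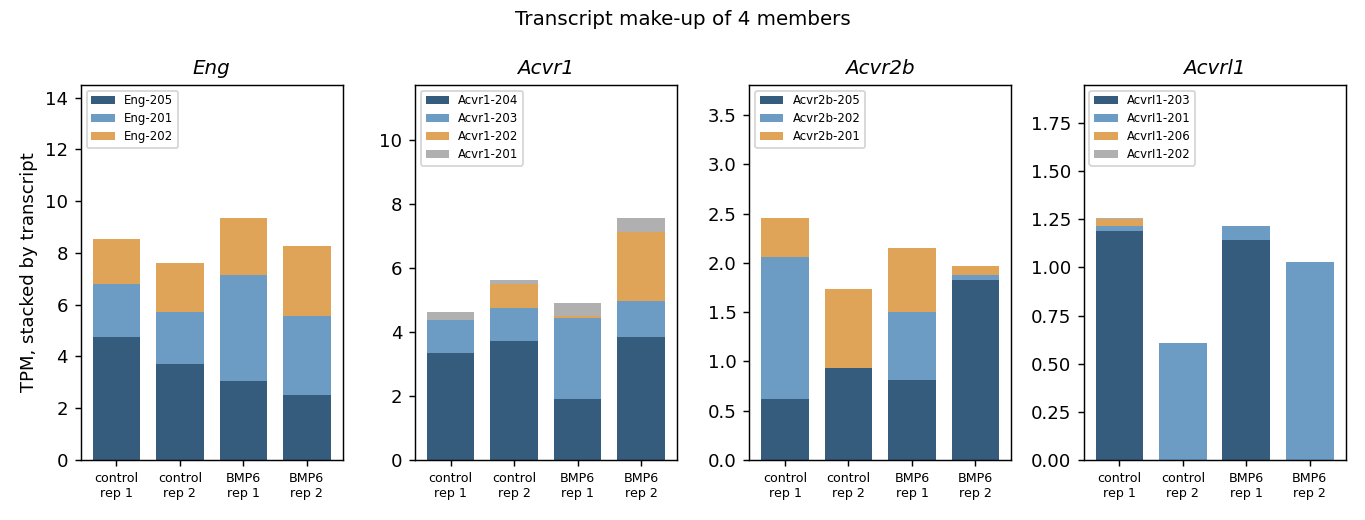
TPM of the annotated transcripts of Eng, Acvr1, Acvr2b and Acvrl1, stacked to the level of the gene, with 1 bar per library and 1 color per transcript. Eng-201 takes a larger part of the bar after BMP6 (4.08 and 3.05 TPM) than in controls, and Acvrl1 is assigned to Acvrl1-203 in replicate 1 and to Acvrl1-201 in replicate 2 of either group.

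For Acvr1, Acvrl1 and Acvr2b the assignment of reads to transcripts varied between libraries of 1 group. Acvr1-203 had 1.03 TPM in both controls, 2.52 TPM in BMP6 replicate 1 and 1.11 TPM in BMP6 replicate 2, and Acvr1-204 had 3.34 and 3.72 TPM in controls and 1.90 and 3.85 TPM after BMP6. For Acvrl1, 94.0% and 94.7% of the level came from Acvrl1-203 in replicate 1 of BMP6 and control, while 100% came from Acvrl1-201 in replicate 2 of either group. The assigned form of Acvrl1 thus differed between the batches and was the same in both treatments of a batch. Acvr1-202 also differed between the batches. It took 1.24% and 0.201% of Acvr1 in replicate 1 of BMP6 and control, and 28.5% and 13.1% in replicate 2 of BMP6 and control.

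Acvr2b has coding forms that differ by a pair of short segments of 1 exon. Compared with Acvr2b-202, which holds both, Acvr2b-201 lacks a segment of 24 bases at chr9:119257267-119257290 and Acvr2b-205 lacks one of 72 bases at chr9:119257419-119257490 (plus strand, GRCm39). They are shown, wholly in capitals, as the bases that tell the forms apart.
Acvr2b 24-base segment: TCACGTACGAGCCACCCCCGACAG
Acvr2b 72-base segment: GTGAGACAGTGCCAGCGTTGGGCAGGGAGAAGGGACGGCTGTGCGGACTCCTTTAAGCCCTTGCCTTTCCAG
Acvr2b-205 took 25.3% and 54.0% of Acvr2b in controls and 37.6% and 92.6% after BMP6. Acvr2b-202 took 58.8% and 0% in controls and 32.2% and 2.50% after BMP6, so that the order of the forms differed within both groups.

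Of the 11 other receptors and coreceptors of the TGF-β superfamily, 6 were tested and none passed the adjusted p of 0.1. The other 5 (Acvr1b, Acvr1c, Amhr2, Tdgf1 and Cfc1) had at most 0.727 TPM in any library, and Tdgf1 and Cfc1 were listed at 0 in all 4. The highest was Hjv, which encodes hemojuvelin (RGMc), another repulsive guidance molecule, known from skeletal muscle and iron metabolism. Hjv had 67.2 and 62.6 TPM in controls and 56.2 and 68.6 TPM after BMP6, a log2 fold change of -0.06 (95% interval -0.36 to 0.24, adjusted p = 1.00), so its level was higher than that of Rgmb in each library. Tgfbr2, the TGF-β type II receptor, had 7.96 and 6.80 TPM in controls and 6.87 and 7.04 TPM after BMP6, and its log2 fold change was -0.07 (adjusted p = 1.00). Of 15 transducers and modulators that act next to the receptors, 14 were tested and none passed, with a median log2 fold change of 0.09. Their highest members were Fkbp1a, which encodes the FKBP12 that binds the glycine-serine repeat of inactive type I receptors, at 606 to 664 TPM over the 4 libraries, and the phosphatase subunit gene Ppp1cc at 196 to 215 TPM. Their log2 fold changes were -0.00036 and 0.071 (adjusted p = 1.00 for both).

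The early targets differed from the receptors by their values. Id1, an inhibitor of basic helix-loop-helix factors, had 90.5 and 129 TPM in controls and 584 and 513 TPM after BMP6, and its log2 fold change was 2.33 ± 0.17 (SE) at an adjusted p of 0.0164. The log2 fold changes of the other 5 that passed were 2.46 for Id3 (adjusted p = 0.0104), 2.04 for Atoh8 (0.0132), 2.01 for Smad7 (0.0511), which encodes an inhibitory SMAD that binds type I receptors, 1.74 for Skil (0.0418) and 1.26 for Id2 (0.0511), all by limma's test. Smad6, named here as the remaining member of the list, had 0.621 and 0.673 TPM in controls and 4.13 and 10.6 TPM after BMP6, with an adjusted p of 0.270, and 0.00169 with the replicate block. In the same 4 libraries, the log2 fold changes of the 9 tested receptor and coreceptor genes lay between -0.32 for Rgmb and 0.29 for Bmpr1a.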

How the data were processed

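RNA-seq was done on 2 BMP6 and 2 control MuSC libraries (Smart-seq2, Nextera XT, paired reads of 100 bases, no strand, no molecular identifiers). The authors aligned reads to GRCm39 with STAR 2.7.11a, sorted them with SAMtools 1.17 and quantified GENCODE genes with StringTie 2.2.1. TPM and FPKM values were deposited per gene and library, and coverage signal per transcript and exon was deposited per library. The 10 members and the other lists were chosen with earlier results of these data known. All 10 members were named, as were members of other lists past the adjusted p and the 2 highest of each. Entries with a mean of at least 1 TPM (13128) were tested with limma 3.58.1 (R 4.3.3; trend) on log2(TPM + 1), two-sided, with Benjamini-Hochberg adjustment over all entries, and 19346 transcripts likewise. The fit was run on simulated data with large changes and independent noise in each library. That run does not show how the fit performs on small changes or on libraries that share a batch. The study's methods state no pairing term for the test that gave its fold changes, but a paired design for its heatmaps. The labels tie equal replicate numbers to 1 batch, and deviations of same-numbered libraries correlated (0.563), so the blocked fit is an alternative. Reads were rebuilt as coverage times length over read length. Coding sequence, overlaps and copies (at least 100 bases at 95% identity, BLAST+ 2.17.0) came from GENCODE M39. Protein sequences were not used here.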

Additional observations from a re-analysis of the deposited data

How the results depend on the processing

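The 9 tested members were refitted under up to 14 alternatives. Of these log2 fold changes 116 kept their direction and their side of the adjusted p of 0.1, 5 changed sign and 1, that of Rgmb, newly passed. Each change of sign came from leaving out 1 library. The log2 fold change ranged from -0.041 (without BMP6 replicate 2) to 0.49 for Acvr1, from -0.090 (without control replicate 2) to 0.40 for Acvrl1, from -0.031 (without BMP6 replicate 2) to 0.21 for Acvr2a, gene and transcript alike, and from -0.18 to 0.16 for Acvr2b (0.035 without BMP6 replicate 2 and 0.16 without control replicate 1). It ranged from -0.64 to 0.10 (without BMP6 replicate 1) for the transcript Acvr1-204, from -0.20 to 0.079 (without BMP6 replicate 1) for Hjv, from -0.17 to 0.029 (without control replicate 1) for Tgfbr2 and from -0.067 to 0.066 for Fkbp1a (0.021 without BMP6 replicate 1 and 0.066 without control replicate 2). The number of members past the adjusted p was 0 in every setting except limma-voom on rebuilt reads with the replicate block, which gave 1, Rgmb. For transcripts it was 0 in all settings run.

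Over all genes, with the entries left out by name taken as not passing, 24 passed both thresholds. That number was 15 when 5 in place of 1 was added before the logarithm, 15 among entries of at least 5 TPM, 12 without the trend, 1 without a filter, 37 with the replicate block that pairs libraries of 1 batch, 63 with that block in limma-voom, and 18 to 34 when 1 library was left out, which assumes that a lone library varies like the other group. Without a filter, 55267 entries were tested and 0 of the 7 early targets passed. The causes of these moves were not tested. Among the genes named here, the block moved Smad6 and the muscle marker Des past the adjusted p of 0.1 in limma's test (for Des, 1.00 without it and 0.0312 with it). The log2 fold change of Des was -0.24, short of 2-fold, so Des was not among the 37. Members near 1 TPM rest on few reads, and small changes in them were not detectable with 2 libraries per group.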
